A study of Mus musculus with 12 samples.

Results

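Messenger RNA levels of the cytosolic ribosomal protein genes were followed in the hippocampus of mice whose neurons make N40K, an N-terminal fragment of the spliceosome protein U1-70K, and of wild-type mice. The members were the entries of the deposited table whose gene name is that of a small-subunit protein (Rps and a number, or Rpsa) or of a large-subunit protein (Rpl and a number, or Rplp0, Rplp1 and Rplp2). The rule found 87 of 23352 entries, 33 for the small and 54 for the large subunit, and 4 of them carried the joined names of a ribosomal protein gene and another entry. A filter on low values left 84 members among 13945 genes. Rpl3l, Rpl10l and Rpl39l did not pass it.

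The 12 libraries formed 4 groups of 3: N40K transgenic mice at 12 months, wild type at 12 months, N40K transgenic mice at 3 months and wild type at 3 months, all on the C57BL/6J strain. The transgenic mice came from a single line, Tg396, and a modified CaMKIIa promoter drives N40K in their neurons. Wild-type mice were non-transgenic littermates. No label says that each library is a separate mouse, so p-values measure the spread between libraries. Because the tissue was taken whole, fewer cells of a type and less RNA per cell cannot be told apart.

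Ribosomes hold their proteins in fixed proportions, and cells make the mRNAs of the small and the large subunit in step. Most of these mRNAs begin with a run of pyrimidines, the 5′ terminal oligopyrimidine (5′ TOP) motif, through which the kinase complex mTORC1 and the RNA-binding protein LARP1 govern their translation and stability. In neurons, ribosomes in cell bodies and dendrites supply the local protein synthesis that synaptic plasticity draws on.

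The stretches below cross the annotated start of 6 genes that the results turn on, 50 bases before it and 30 from it on, in RefSeq's GRCm38.p6 assembly and on the coding strand. They are shown to let the start-site run be seen in genes that moved in different ways. Capitals mark runs of at least 6 pyrimidines that touch the 10 bases on either side of the start.
Rplp2 (chr7:141447601-141447680, plus strand): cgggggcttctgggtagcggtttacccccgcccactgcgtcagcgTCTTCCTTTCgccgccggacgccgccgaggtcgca
Rps21 (chr2:180257329-180257408, plus strand): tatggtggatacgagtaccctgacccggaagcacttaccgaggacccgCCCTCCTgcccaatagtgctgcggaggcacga
Rpl18 (chr7:45718021-45718100, plus strand): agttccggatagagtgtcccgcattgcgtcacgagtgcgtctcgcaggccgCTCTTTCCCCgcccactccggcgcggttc
Rps15a (chr7:118116118-118116197, minus strand): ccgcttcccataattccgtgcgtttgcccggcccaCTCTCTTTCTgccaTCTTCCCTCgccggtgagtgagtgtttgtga
Rpl13 (chr8:123102300-123102379, plus strand): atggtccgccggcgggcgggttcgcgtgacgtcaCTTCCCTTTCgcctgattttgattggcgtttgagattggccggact
Rps13 (chr7:116334161-116334240, minus strand): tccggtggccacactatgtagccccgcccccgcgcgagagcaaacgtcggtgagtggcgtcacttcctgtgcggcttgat

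Of 80 member symbols, 60 matched a RefSeq promoter window of 250 bases before and 50 after the start. A pyrimidine run near the start stood in 34 of these 60 windows (56.7%), against 29.1% of 27025 promoter windows of the same length. The letters CCGGAAG, the core of the GABP and ETS family motif, occurred on either strand in 24 of 60 member windows and in 9.12% of all windows. GGGCGG, the GC box of Sp1, occurred in 61.7% of member windows against 35.9% of all, AAGATGG, part of the YY1 motif, in 9 of 60 against 6.48%, and the TATA box letters TATAAA in 6 of 60 against 14.2%. CCGGAAG and AAGATGG can overlap in the letters AAG. A match is a description of the letters and not a bound site.

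The members were among the most abundant mRNAs of the tissue. Their summed FPKM (fragments per kilobase of transcript, scaled to library depth) came to 4.33 ± 0.0955% of all summed FPKM in N40K mice and 4.62 ± 0.268% in wild type at 12 months, and to 5.02 ± 0.165% in N40K mice and 4.89 ± 0.170% in wild type at 3 months (SD, n = 3 each). By library the shares were 4.37, 4.39 and 4.22% in N40K mice and 4.53, 4.92 and 4.4% in wild type at 12 months, and 4.83, 5.15 and 5.06% in N40K mice and 5.08, 4.84 and 4.75% in wild type at 3 months. At 12 months the 3 N40K libraries were thus the lowest of the 12, just under the lowest wild-type library, while at 3 months the genotypes overlapped. The summed large-subunit level stood at 1.43 to 1.47 times that of the small subunit in every library.

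**Figure D1:**
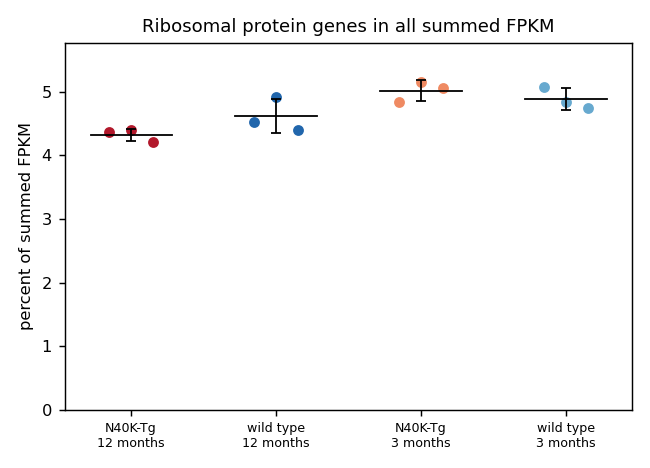
Share of the ribosomal protein genes in the summed FPKM of each library, in percent, by group. Points are libraries, the horizontal line is the mean and the bar the SD (n = 3); the N40K libraries at 12 months lie at 4.22 to 4.39%, below every other library.

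Single members differed widely in level per length. The median of their means over 12 libraries was 173 FPKM, and 65 of 84 lay at 100 FPKM or more. Rplp1, an acidic protein of the stalk that recruits elongation factors to the large subunit, was highest with 714 to 1007 FPKM, followed by Rps15 (450.1 to 629), Rps21 (272 to 566), Rpl4 (346 to 451) and Rpl26 (283 to 492). The lowest that passed the filter were Rps27 (2.31 to 3.87 FPKM), Rpl7l1 (mean 14.2), Rps13 (11.8 to 27.7), Rps27l (17.2 to 26.7 at 12 months and 23.4 to 29.7 at 3 months) and Rpl34 (15.9 to 34.3). Some genes with low values have a joined entry as well. The joined entry Rps27;Gm9846 held a mean of 177 FPKM beside 3.08 for Rps27, Rpl34;Rpl34-ps1 held 223 beside 27.8 for Rpl34, and Gm12191;Rpl30 held 236 beside 42.7 for Rpl30. Rpl26;Gm15772 held 328 FPKM beside 389.7 for Rpl26. In addition, 64 of the 84 members have at least 1 annotated pseudogene that carries their name, and the exons of 19 overlap those of another gene, Rpl18, Rpl12 and Rpl31 among them. The sources used here do not say how reads with several matching places, or reads from either strand, were counted, so the levels of such members are uncertain.

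**Figure D2:**
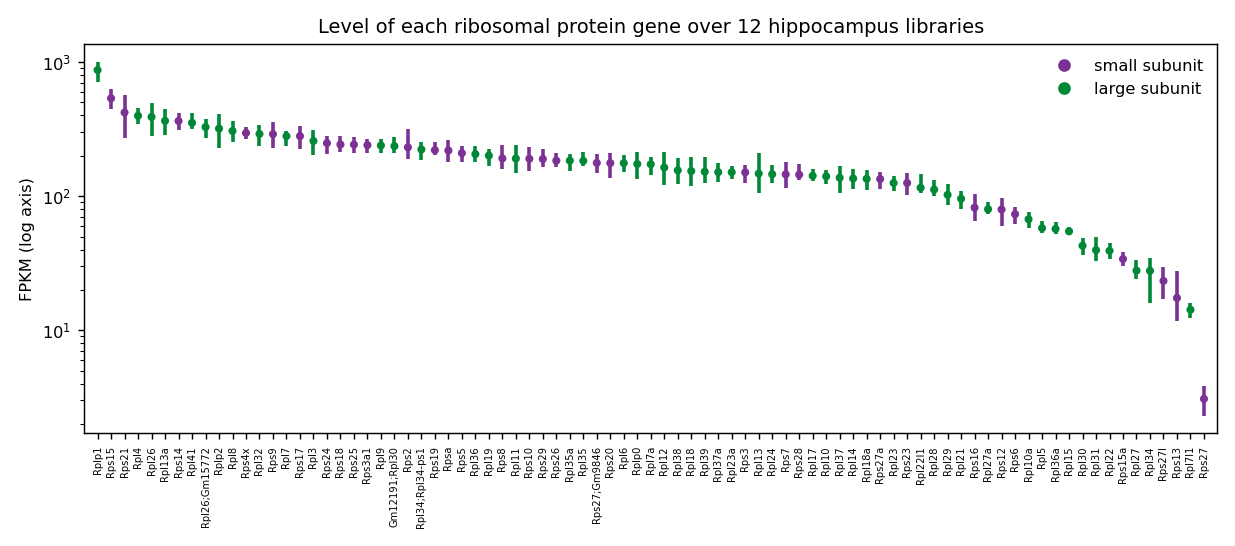
FPKM of 83 of the 84 ribosomal protein genes that passed the filter, on a log axis, ordered by level. Points are means over 12 libraries and bars run from the lowest to the highest library; most genes lie between 100 and 400 FPKM, with Rplp1 above and Rps27 far below.

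Paralogues with a tissue of their own were nearly silent. Rpl10l, which takes over from X-linked Rpl10 in the male germ line, was listed at 0 in 11 of 12 libraries, Rpl39l, its counterpart for Rpl39, stayed at 0.318 FPKM or less, and Rpl3l, the striated-muscle form of Rpl3, at 0.723 FPKM or less. Rpl22l1, by contrast, which can replace Rpl22 in the large subunit, was higher per length than Rpl22 itself in every library. Its level was 118, 116 and 109 FPKM in N40K mice and 114, 145 and 119.5 FPKM in wild type at 12 months, and 110.4, 118 and 107 FPKM in N40K mice and 111, 113 and 105 FPKM in wild type at 3 months. Its ratio to Rpl22 was 3.35 ± 0.132 in N40K mice and 3.23 ± 0.170 in wild type at 12 months, against 2.65 ± 0.122 in N40K mice and 2.66 ± 0.105 in wild type at 3 months (SD, n = 3 each). The ratios of the 2 ages did not overlap and those of the genotypes did. Rpl22 itself was called lower with age in N40K mice (log2 difference -0.29), while Rpl22l1 was not called with age in either genotype. How often the ratio of other gene pairs separates the ages was not counted.

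With age, most members were lower. In N40K mice 71 of 84 were called lower at 12 than at 3 months and 1 was called higher, where the table as a whole had 36.5% of genes lower and 15.1% higher (limma, adjusted p under 0.05). In wild type 37 members were called lower and 3 higher, against 29% and 12.6% of all genes. All 37 that fell in wild type also fell in N40K mice, which is 52.1% of the N40K list. How often this held over all genes was not counted. With 1 library left out, total calls ran from 32 to 55 in wild type and from 63 to 75 in N40K mice. Of all genes 23.4 to 28.6% were then lower and 9.78 to 12.6% higher in wild type. In N40K mice 30.1 to 39.8% were lower and 12.9 to 16.4% higher. Relative to each gene's mean, the members averaged 0.08 on the log2 scale in replicate 2 of wild type at 12 months. In replicates 1 and 3 of that group they averaged -0.08 and -0.14. The median log2 difference of the members was -0.33 in N40K mice and -0.15 in wild type, where all genes had medians of -0.10 and -0.08. In N40K mice every library at 12 months lay below every library at 3 months for 75 members, where this held for 43.7% of all genes. In wild type it held for 36 members and 34.5% of all genes, and 5 members were higher without overlap, against 15.7% of all genes. Same-numbered wild-type libraries of the 2 ages deviated together, though no label pairs them. With the replicate number as a block, 36 members were called lower and 5 higher in wild type, against 28.2% and 12% of all genes. By subunit, 29 of 33 small-subunit and 42 of 51 large-subunit members fell in N40K mice, and 16 and 21 in wild type.

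Rps21 and Rplp2 had the largest falls. Rplp2, the second acidic stalk protein, measured 246, 248 and 227 FPKM in N40K mice at 12 months, against 396, 412 and 385 FPKM at 3 months. In wild type it measured 234, 264 and 233 FPKM at 12 months, against 408, 375 and 402 FPKM at 3 months. The ages were far apart in both genotypes, with log2 differences of -0.73 ± 0.06 (SE, adjusted p = 6.4e-06) in N40K mice and -0.69 ± 0.06 (adjusted p = 1.72e-05) in wild type. Rplp0, which anchors the stalk to the ribosome, fell by 0.57 ± 0.06 and 0.43 ± 0.06 on the log2 scale in N40K mice and wild type. Rplp1 fell by 0.36 ± 0.07 in N40K mice, and in wild type its difference of -0.07 ± 0.07 was not called.

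Rps21, a small protein of the small subunit, had 288, 296 and 272 FPKM in N40K mice at 12 months, against 458, 535 and 505 FPKM at 3 months. In wild type it had 349, 422 and 327 FPKM at 12 months, against 566, 511 and 519 FPKM at 3 months. Both genotypes separated by age without overlap, by -0.80 ± 0.09 (adjusted p = 4.31e-05) in N40K mice and -0.54 ± 0.09 (adjusted p = 0.000819) in wild type. Rpl11, which with Rpl5 and 5S RNA forms the particle that can bind Mdm2, fell by 0.65 ± 0.06 in N40K mice and 0.42 ± 0.06 in wild type. Rpl12, next to the stalk base, fell by 0.64 ± 0.07 and 0.48 ± 0.07, and Rpl18 by 0.58 ± 0.06 and 0.45 ± 0.06, in N40K mice and wild type. Rpsa, also known as the laminin receptor precursor, fell by 0.42 ± 0.06 and 0.32 ± 0.06. The falls of Rplp2, Rplp0, Rps21, Rpl11, Rpl12, Rpl18 and Rpsa passed the test under every alternative that was run. Leaving out joined entries, or a library of the other genotype, could not change the size of these falls.

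A few members ran against this direction. Rps13, a small-subunit protein, stood at 16.1, 19.4 and 21.1 FPKM in N40K mice at 12 months, against 11.8, 15.8 and 11.8 FPKM at 3 months. In wild type it stood at 23.2, 27.7 and 18.6 FPKM at 12 months, against 13.4, 13.8 and 16.5 FPKM at 3 months. It was called higher with age in both genotypes, by 0.50 ± 0.15 in N40K mice (adjusted p = 0.0168) and 0.62 ± 0.15 in wild type (adjusted p = 0.00678), the N40K call being lost under 5 of 23 alternatives. Rps15a differed by 0.04 ± 0.04 in each genotype, and Rpl22l1 by 0.04 ± 0.08 in N40K mice and 0.19 ± 0.08 in wild type, none of them called. In wild type Rpl13 and Rpl31, both of the large subunit, were called higher at 12 months, by 0.51 ± 0.16 and 0.33 ± 0.11, and lost that call under 5 and 6 of 23 alternatives.

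**Figure D3:**
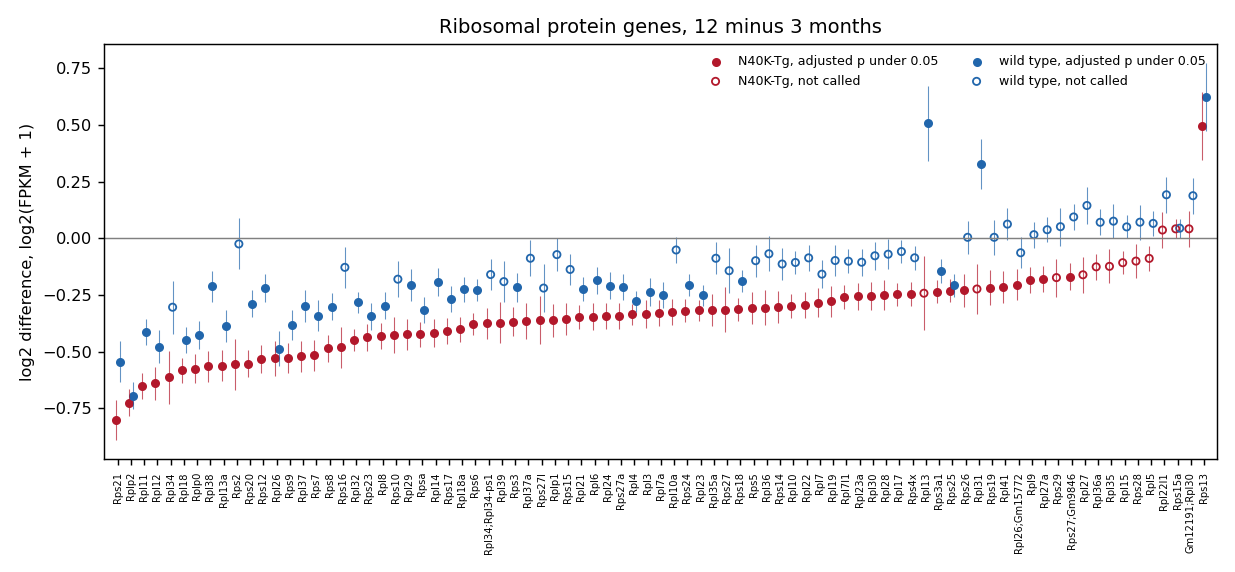
Log2 difference of 83 ribosomal protein genes, 12 minus 3 months, on the log2(FPKM + 1) scale, in N40K-Tg (red) and wild type (blue). Bars are SE, filled points passed an adjusted p of 0.05 (limma), and genes run by their N40K difference; 70 of those shown are called lower in N40K mice and 37 in wild type, and Rps13 lies above 0 in both.

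Several measurements moved with age beside these falls. The libraries of the 2 ages carry identifiers from separate number ranges, so age and library set cannot be told apart. The members have short transcripts, with a median length of 886.5 bases against 3069 for all genes tested, counted on the longest annotated coding transcript. With each library's trend against transcript length removed, 29 members were called lower and 4 higher in N40K mice, 19 lower and 17 higher in wild type, and the medians were -0.09 and -0.01. Of all genes, 16.6% were then called lower and 17.1% higher in N40K mice, and 16.5% lower and 16.3% higher in wild type. The same correction brought the median of all genes from -0.10 in N40K mice and -0.08 in wild type to about 0 (-0.001 and -0.004), and median-ratio scaling left 52 lower and 2 higher in N40K mice and 22 lower and 7 higher in wild type. All genes under that scaling had 20.7% lower and 22.6% higher in N40K mice, and 18.2% lower and 18.4% higher in wild type. Genes with a small nucleolar RNA inside an intron, 30 of the 84 members (35.7%) but 1.92% of all genes tested, were lower with age in 26 of 30 cases in N40K mice, against 45 of 54 members without one, and in 17 of 30 against 20 of 54 in wild type; the difference was not tested. Xist RNA was at 13.5 to 17.3 FPKM in replicates 2 and 3 of wild type and replicate 3 of N40K mice at 3 months and at 0.112 FPKM or less in the other 9 libraries, so the sexes were not balanced between the ages. With Xist as a covariate 72 members were called lower in N40K mice and 29 in wild type, against 33.1% and 20.7% of all genes. Of 6 oligodendrocyte markers 3 were lower with age in each genotype, with medians of -0.34 in N40K mice and -0.32 in wild type. Over all genes 36.5% were lower and 15.1% higher in N40K mice, and 29% and 12.6% in wild type. Of 6 endothelial and mural markers 1 was lower and 2 higher in N40K mice and 4 lower and 1 higher in wild type. Of 6 interneuron markers 3 were higher in N40K mice and 2 in wild type. Of 6 astrocyte markers 2 were lower in each genotype, and of 6 pyramidal neuron markers 2 in N40K mice and 1 in wild type. Of 4 dentate granule markers 1 was higher and 1 lower in N40K mice, and 2 were higher in wild type. Of 8 microglia markers 1 was higher and 1 lower in each genotype. The part of these measurements in the falls was not tested beyond the corrections given.

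At 12 months N40K mice had lower levels of many members than wild type. The test called 14 of 84 lower and 1 higher, against 7.71% of all genes lower and 11.2% higher. In 36 members every N40K library lay below every wild-type library, which held for 17.5% of all genes, and 82 of the 84 differences were negative, with a median of -0.13 against 0.01 for all genes. Among those called lower, 5 belonged to the small and 9 to the large subunit. The called set included Rpl3, Rps27;Gm9846, Rps20, Rps12, Rpl30, Rps21, Rpl38, Rpl26;Gm15772, Rpl34;Rpl34-ps1, Rplp1, Rpl37, Rpl32 and Rpl22, with log2 differences between -0.15 and -0.35.

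Rpl3, which lies close to the centre where peptide bonds form, was called lower in N40K mice at both ages. It measured 209, 209 and 204 FPKM in N40K mice and 243, 288 and 245 FPKM in wild type at 12 months. At 3 months it measured 267, 254 and 263 FPKM in N40K mice and 309, 314 and 291 FPKM in wild type. The genotypes did not overlap at either age, with N40K lower, which held for 2 members and for 5.78% of all genes. The log2 difference was -0.31 ± 0.06 (adjusted p = 0.00637) at 12 months and -0.22 ± 0.06 (adjusted p = 0.0438) at 3 months. The call at 12 months held under all 24 alternatives, between -0.36 and -0.23, while the call at 3 months was lost under 13 of 24. Not every alternative could move the 12-month difference. Leaving out joined entries changed nothing for a single gene, and leaving out libraries of 3 months altered only the estimated spread.

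Rps20, in the head of the small subunit, measured 137, 137 and 137 FPKM in N40K mice and 162, 182 and 153 FPKM in wild type at 12 months. At 3 months it measured 191, 208 and 205 FPKM in N40K mice and 206, 194 and 206 FPKM in wild type. The N40K libraries lay below wild type at 12 months and overlapped with it at 3 months. The log2 differences were -0.27 ± 0.06 (adjusted p = 0.011, held under all 24 alternatives) and -0.01 ± 0.06. Rps12 (-0.25 ± 0.06) and Rpl30 (-0.25 ± 0.06) kept their calls at 12 months under 22 and 21 of 24 alternatives, the joined Rps27;Gm9846 (-0.26 ± 0.06) under 21 of 23, and Rps21 (-0.35 ± 0.09) under 20 of 24. The others were less firm: the call of Rpl38 was lost under 10 alternatives, that of Rpl32 under 20, and the rest under 14 to 17. For Rpl30, Rps27, Rpl26 and Rpl34 the other entry of the gene was lower in N40K mice too, but was not called. Gm12191;Rpl30, the more abundant entry of Rpl30, had means of 233 FPKM in N40K mice and 258 FPKM in wild type at 12 months. At 3 months its means were 228 and 226 FPKM.

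Rps15a, a core protein of the small subunit, was the only member called higher in N40K mice at both ages. It measured 36.8, 38.5 and 36.1 FPKM in N40K mice and 30.8, 32.8 and 32.0 FPKM in wild type at 12 months. At 3 months it measured 35.2, 37.3 and 35.6 FPKM in N40K mice and 31.3, 31.4 and 29.9 FPKM in wild type. Each N40K library lay above each wild-type library at both ages, which held for 10.3% of all genes, and the log2 difference was 0.21 ± 0.04 at 12 months (adjusted p = 0.00583) and 0.22 ± 0.04 at 3 months (adjusted p = 0.00737). The call held at 12 months under all 24 alternatives and at 3 months under 23. Rps15a has 8 annotated pseudogenes of its name, so its level is uncertain. The same holds for Rps12 and Rpl31 with 24 each, Rps2 with 11, Rps13 with 7 and Rpl13 with 6.

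**Figure D4:**
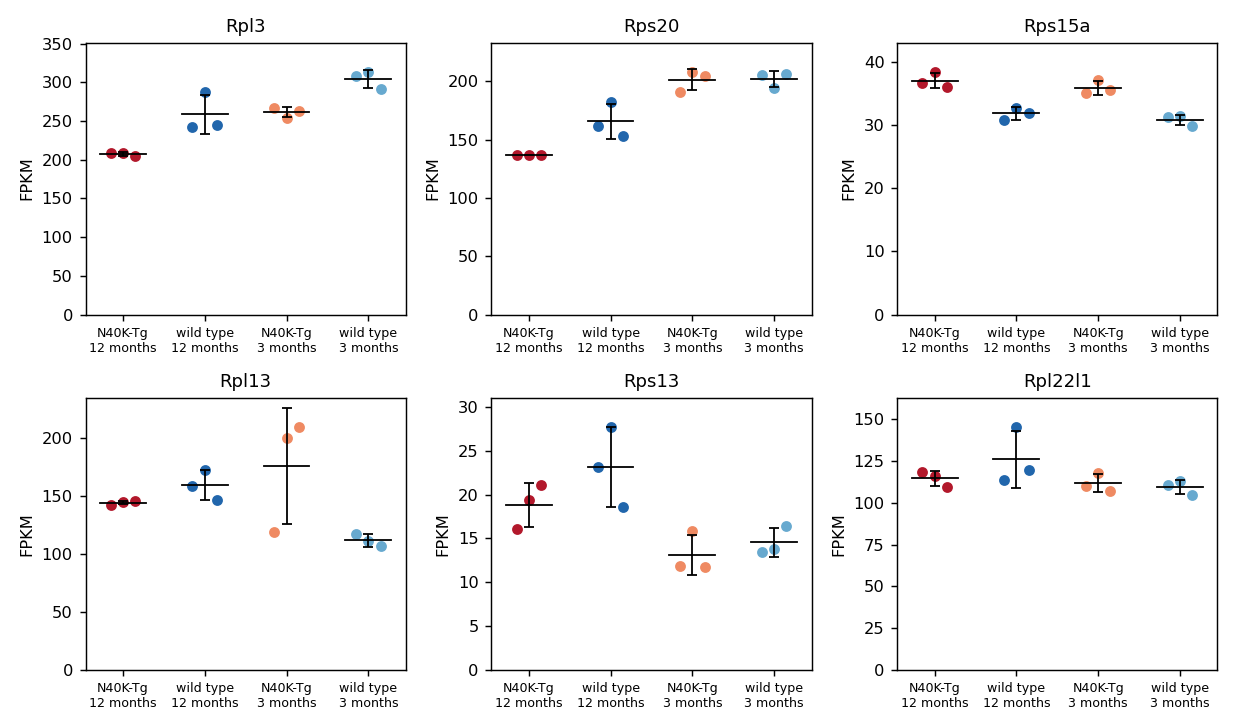
FPKM of Rpl3, Rps20, Rps15a, Rpl13, Rps13 and Rpl22l1 by group. Points are libraries, lines are means and bars SD (n = 3); Rpl3 is lower and Rps15a higher in N40K-Tg than in wild type at both ages, Rps20 is lower at 12 months, and 2 of the N40K-Tg libraries at 3 months stand at 199 and 209 FPKM for Rpl13.

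One wild-type library weighed on the 12-month comparison. Replicate 2 of wild type at 12 months held the highest value of the 6 libraries for 77 of 84 members. Without it 6 members were called lower and 1 higher, against 5.34% and 7.66% of all genes, and the median difference was -0.07. Without replicate 3 of the same group, 29 were called lower and 1 higher, against 7.69% and 11% of all genes. Leaving out replicate 1, 2 or 3 of N40K mice at 12 months gave 4, 7 and 6 calls in all. Of all genes 3.53, 3.83 and 5.79% were then lower and 6.2, 6.34 and 8.58% higher. That second replicate also had the lowest Snrnp70 level, 95.96 FPKM, against 133 and 138 in the other wild-type libraries of that age and 259 to 320 in N40K mice. Snrnp70, the gene that encodes U1-70K, served as the check of the transgene and separated the genotypes in every library.

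Marker genes of cell types moved in the same comparison. The summed level of 6 pyramidal neuron markers was 1471 to 1589 FPKM in N40K mice and 1694 to 1797 FPKM in wild type at 12 months, with 1 of the 6 called higher, 2 lower, and log2 differences from -0.31 to 0.58. That of 6 oligodendrocyte markers was 1361 to 1452 against 1517 to 1646 FPKM, and that of 6 endothelial and mural markers 68.4 to 74.4 against 56.3 to 58.7 FPKM. The 6 astrocyte markers summed to 773 to 782 against 788 to 854 FPKM, and the 3 red blood cell markers to 85.2 to 107 against 115 to 135 FPKM. None of these 5 sums overlapped between the genotypes at 12 months, and no oligodendrocyte, astrocyte or red blood cell marker was called there. The sums of the dentate granule, interneuron, oligodendrocyte precursor, microglia, choroid plexus, ependyma and meninges markers did overlap. Of all single genes, 21.3% were higher and 17.5% lower in N40K mice without overlap at that age. The 7 choroid plexus markers summed to between 88.1 and 6854 FPKM over the 12 libraries. The part of these cell types in the ribosomal protein levels was not tested.

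At 3 months few members were called between the genotypes. By Xist RNA the sexes were not balanced here, with replicate 3 of N40K mice and replicates 2 and 3 of wild type high. That imbalance enters the averaged and interaction contrasts too. The test called 2 higher and 1 lower in N40K mice, against 7.95% and 3.49% of all genes, and the median difference was 0.05, against 0.02 for all genes. That median was 0.02 with median-ratio scaling and turned to -0.0082 with the length trend removed. Groups did not overlap in 16 members higher (20.4% of all genes) and 2 lower (11.5%) in N40K mice. Beside Rps15a and Rpl3, Rpl13 of the large subunit was called, at 118, 199 and 209 FPKM in N40K mice and 117, 111 and 106 FPKM in wild type. That difference, 0.61 ± 0.16 (adjusted p = 0.0364), rested on replicates 2 and 3 of N40K mice, whereas replicate 1 lay just above wild type. Without those 2 libraries it was 0.09, and the call was lost under 11 of 24 alternatives.

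The same 2 libraries were high for Rps2, with 226, 319 and 314 FPKM in N40K mice and 233, 229 and 213 FPKM in wild type. Rpl31 had 34.8, 49.8 and 47.1 FPKM in N40K mice and 36.1, 33.7 and 32.9 FPKM in wild type. In these 2 genes and Rpl13 both libraries lay 1.30 to 1.68 times above the highest of the other 4, and in each other member that factor was 1.13 or less. The difference was not called for Rps2 (adjusted p = 0.0849) or Rpl31 (adjusted p = 0.0782). At 12 months all 3 genes lay lower in every N40K library than in every wild-type library, without passing the test. Leaving out 1 library moved the 3 calls at 3 months to 1 without replicate 1 or 2 of N40K mice at 12 months, replicate 2 or 3 of N40K mice at 3 months or any wild-type library at 3 months. It moved them to 5 without replicate 1 of N40K mice at 3 months and to 7 without replicate 2 of wild type at 12 months. Of all genes 4.15 to 6.65% were higher and 1.56 to 2.86% lower in the fits with 1 call. The fit with 5 calls had 6.81% higher and 2.78% lower, and the fit with 7 had 10.7% and 5.21%.

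**Figure D5:**
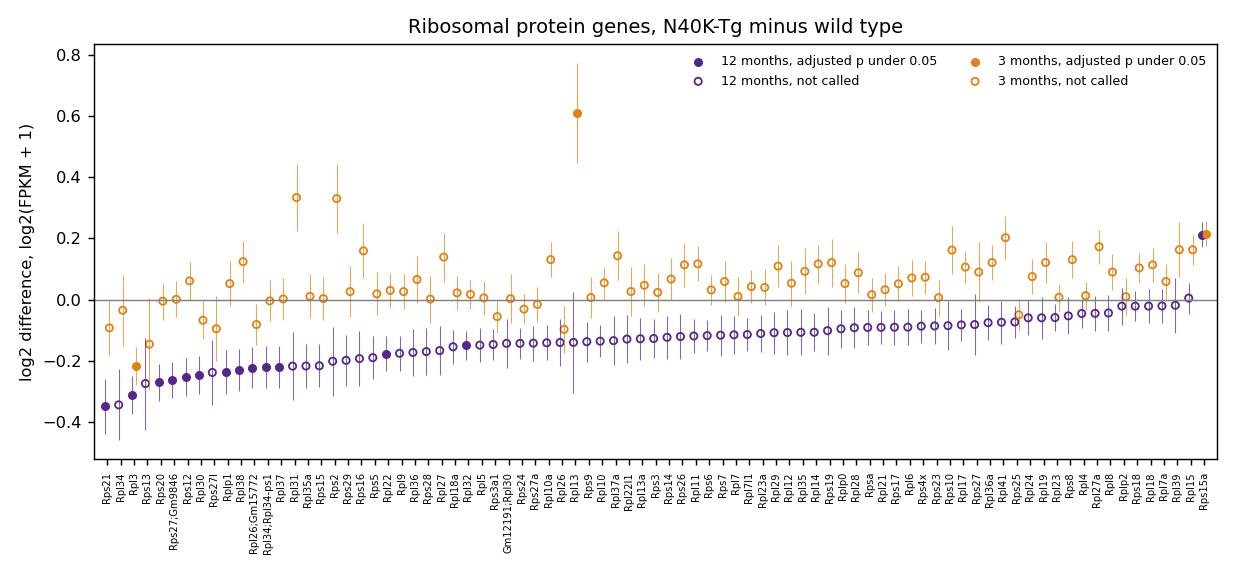
Log2 difference of 83 ribosomal protein genes, N40K-Tg minus wild type, on the log2(FPKM + 1) scale, at 12 months (purple) and at 3 months (orange). Bars are SE and filled points passed an adjusted p of 0.05 (limma); at 12 months 81 of the genes shown lie below 0 and 13 are called lower, and at 3 months 69 lie above 0 and 2 are called higher, among them Rpl13 at 0.61.

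Averaged over both ages, 1 member was called higher (Rps15a) and 6 lower (Rpl3, Rpl30, Rps21, Rps20, Rpl26;Gm15772 and Rps27;Gm9846), against 15.5% and 9.54% of all genes (25% in all). The other entries of Rpl30, Rpl26 and Rps27 were not called. Rpl3 (-0.27 ± 0.04, adjusted p = 0.00133) and Rps15a (0.21 ± 0.03, adjusted p = 0.0004) held under all 23 alternatives. The 7 calls became 2 without replicate 1 of wild type at 3 months, and 4 without replicate 1 of N40K mice at 12 months, replicate 3 of N40K mice at 3 months or replicate 2 of wild type at 3 months. In these fits 12.6 to 13.8% of all genes were higher and 7.32 to 8.2% lower.

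Whether the genotype difference itself changed with age was tested as an interaction. No member was called by limma, and 9 of all genes were (0.0645%, with 0.0359% in the positive and 0.0287% in the negative direction). Without replicate 1 of N40K mice at 3 months 3 members were called lower, where 1.03% of all genes were lower and 0.136% higher. At an unadjusted p under 0.05, 31 members were lower and 0 higher, against 8.88% and 5.44% of all genes. The interaction was negative in all 84 members, so each fell more, or rose less, with age in N40K mice than in wild type, while 53.1% of all genes had a negative value. The members share their libraries and are not independent of each other. Their median was -0.18, and -0.11 without replicate 2 of wild type at 12 months. The smallest p-values were those of Rpl38 (-0.35 ± 0.10, adjusted p = 0.17) and Rps12 (-0.31 ± 0.09, adjusted p = 0.17), so for no single gene was a different genotype effect at the 2 ages established.

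Fau and Gnb2l1, ribosomal proteins that bear other gene names, were lower with age too. Fau, a ubiquitin-like protein fused to a small-subunit protein, fell by 0.66 ± 0.08 in N40K mice and 0.42 ± 0.08 in wild type. Gnb2l1, now called Rack1, a scaffold on the small subunit, fell by 0.29 ± 0.05 and 0.20 ± 0.05. Neither was called between the genotypes at either age.

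Of 18 other transcripts with a 5′ TOP motif, the noncoding Gas5 among them, 14 were lower with age in N40K mice and 8 in wild type. Of all genes 36.5% and 29% were lower. In either genotype 0 of the 18 were higher. Eef1d, a subunit of the factor that reloads elongation factor 1A, fell by 0.49 ± 0.04 and 0.35 ± 0.04. Between genotypes at 12 months 2 of the 18 were called, where 18.9% of all genes were: Hnrnpa1, a splicing regulator, was higher in N40K mice by 0.52 ± 0.10 and Eef1b2, a sister subunit of Eef1d, lower, with a difference of -0.23 ± 0.06.

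Of 41 ribosome assembly factors, 5 were higher and 2 lower in N40K mice at 12 months, against 11.2% and 7.71% of all genes, so the list was near the table as a whole. At 3 months 3 were higher and 4 lower, against 7.95% and 3.49% of all genes. Gnl3, a nucleolar GTPase, was at 24.5, 24.7 and 22.4 FPKM in N40K mice and 16.7, 14.6 and 16.2 FPKM in wild type at 12 months. The groups were apart, by 0.56 ± 0.07 (adjusted p = 0.000431), and at 3 months by 0.42 ± 0.07 (adjusted p = 0.00278). Wdr43, part of the complex that processes the small-subunit rRNA, was higher by 0.46 ± 0.04 and 0.28 ± 0.04 at 12 and 3 months, and Mdn1, the giant ATPase of large-subunit maturation, by 0.54 ± 0.09 at 12 months. Nvl, an ATPase that acts on the same particles, was lower in N40K mice, with differences of -0.26 ± 0.07 at 12 months (a call lost under 7 of 24 alternatives) and -0.61 ± 0.07 at 3 months. With age, 19 of the 41 were lower and 3 higher in N40K mice and 22 lower and 2 higher in wild type, where 36.5% and 29% of all genes were lower.

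Among 36 translation factors, 6 were lower and 2 higher in N40K mice at 12 months, against 7.71% and 11.2% of all genes. At 3 months 5 were lower and 0 higher, against 3.49% and 7.95% of all genes. Eif4a2, a helicase of cap-dependent initiation, differed by -0.29 ± 0.06 and -0.23 ± 0.06, and Eef1a2, the neuronal form of elongation factor 1A, by -0.26 ± 0.06 and -0.31 ± 0.06, at 12 and 3 months. The call of Eif4a2 at 3 months was lost under 9 of 24 alternatives. Eef2k, the kinase that slows elongation, was higher in N40K mice at 12 months, by 0.47 ± 0.07. A list of 17 genes of mTORC1 and of the Myc network that controls ribosomal protein synthesis had 1 gene higher (Tsc1) and 1 lower (Max, a partner of Myc) in N40K mice at 12 months, and 2 higher at 3 months. The 12-month shares lie near or below those of all genes, 11.2% higher and 7.71% lower. At 3 months 7.95% of all genes were higher. Tsc1, a brake on mTORC1, had 12.9, 13.0 and 11.9 FPKM in N40K mice and 9.17, 8.64 and 10.3 FPKM in wild type at 12 months. It had 11.3, 10.05 and 10.7 FPKM in N40K mice and 8.11, 8.70 and 8.40 FPKM in wild type at 3 months. N40K libraries lay above wild type without overlap at both ages, which held for 10.3% of all genes. The differences were 0.39 ± 0.06 (adjusted p = 0.00247) and 0.31 ± 0.06 (adjusted p = 0.0111) at 12 and 3 months.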

How the data were processed

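Poly-A selected RNA of mouse hippocampus was sequenced in pairs on a HiSeq instrument, per the labels' protocols. The authors deposited FPKM values in 1 table with a column per library, and each of the 12 columns bears the name of 1 library. CASAVA, STAR, BWA and mm9 appear in the submitters' processing notes without roles or versions. Counting tool, annotation and strand setting: not given in the sources used here.

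The test used log2(FPKM + 1) as deposited, with no rescaling, for genes at 1 FPKM or more in at least 3 libraries, with limma 3.58.1 in R 4.3.3 (eBayes with trend, 4 group means, 6 contrasts, two-sided). Adjusted p-values are Benjamini-Hochberg over all 13945 genes, with a threshold of 0.05. Fold differences on this scale understate changes of low genes. The members and gene lists were chosen with earlier results of these data known, and no set test was made. Named were the stalk genes, Rpsa, Rps4x, paralogues, the called members with the smallest p (at most 10 a contrast), the 3 largest differences each way, the 5 highest and lowest levels and at most 3 called genes of each pathway list; Rps2 and Rpl31 at 3 months and Rps15a and Rpl22l1 with age were named after their values were seen.

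Depth recovered from steps between low values was 39.94 to 97.26 M reads per library. Since 56.4 to 70.3% of the values were whole reads (tolerance 0.02), it is approximate and no count test was run. FPKM sums ran from 309358 to 350760. No 2 libraries shared more than 0.0159% of values. Names, transcript lengths, GC content and overlaps came from GENCODE M21 (another build; 98.6% of entries matched). The procedure was tested on simulated data in which each gene was drawn independently. Shifts shared by many genes of a library were not simulated. Replicate numbers were checked for pairing: same-numbered wild-type libraries of the 2 ages deviated together (correlations 0.246, 0.263 and 0.343), those of the other comparisons did not (-0.456 to 0.197). Alternatives were another pseudocount (0.1), median-ratio and quantile scaling, no filter, a filter at a mean of 5 FPKM, Xist as covariate, the replicate block, each age alone, lowess trends (span 0.3) against length or GC removed, joined entries left out and each library left out; leaving out replicates 2 and 3 of N40K mice at 3 months together was added after seeing the data. Tables and plots were made in Python 3.11.15 (matplotlib 3.10.9, numpy 2.4.6, pandas 2.3.3). Some genes are counted but not reported here by name or plotted.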

Additional observations from a re-analysis of the deposited data

How the results depend on the processing

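The age falls of Rplp2, Rplp0, Rps21, Rpl11, Rpl12, Rpl18 and Rpsa passed the test under every alternative. So did the 12-month differences of Rpl3, Rps20 and Rps15a. Leaving out joined entries, or libraries that a difference does not use, could not change that difference. The length correction used the longest annotated coding transcript, which is 5179 bases for Rps15a, 3706 for Rps20 and 2989 for Rpl18. The member median is 886.5, and how well such lengths suit these genes was not tested. Counts of called members depended more on the settings. At 12 months 15 members were called between genotypes, against 6 without a filter, 7 with quantile normalization, 7 with Xist as a covariate, 4 with each age fitted alone, 8 without replicates 2 and 3 of N40K mice at 3 months, and 4 to 30 with 1 library left out. At 3 months the 3 calls became 1 without a filter and 6 (5 higher) with quantile normalization. Of all genes 4.27% were higher and 1.93% lower without a filter, and 5.59% and 4.69% with quantile normalization. Leaving out 1 library gave 1 to 7 member calls, with 4.15 to 10.7% of all genes higher and 1.56 to 5.21% lower. Averaged over both ages the 7 became 3 without a filter, 11 with the length trend removed, and 2 to 10 with 1 library left out. Of all genes 9.7% were higher and 5.42% lower without a filter, and 14% and 13.1% with the length trend removed. Quantile normalization split 9 calls into 4 higher and 5 lower, against 12.1% of all genes in each direction. The interaction gave 0 to 3 calls, 3 without replicate 1 of N40K mice at 3 months, where 1.03% of all genes were lower.

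With age in N40K mice 72 members were called (1 higher). The total was 33 (4 higher) with the length trend removed, 42 (2 higher) without the 2 libraries, and 63 to 75 with 1 library left out. In wild type the 40 calls became 32 to 55 with 1 library left out, where 23.4 to 28.6% of all genes were lower and 9.78 to 12.6% higher. There the split was 15 higher and 24 lower with quantile normalization and 9 and 25 with the GC trend removed. It was 17 and 19 with the length trend removed and 7 and 22 with median-ratio scaling. Of all genes 18.4% were higher and 18.8% lower with quantile normalization, and 17.1% and 16.5% with the GC trend removed. The shares were 16.3% and 16.5% with the length trend removed, and 18.4% and 18.2% with median-ratio scaling.

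Medians with age moved to -0.22 (median-ratio), -0.13 (quantile), -0.0851 (length) and -0.23 (GC) in N40K mice, and to -0.0834, -0.0583, -0.00776 and -0.0689 in wild type, in the same order, where 1 library left out gave -0.22 to -0.10. The 12-month median was -0.0373 with quantile normalization and -0.0727 with the length trend removed, and the 3-month median -0.0082 with the length trend removed. The interaction median was -0.0829 with quantile normalization, -0.0758 after removal of the length trend, and -0.23 to -0.11 with 1 library left out. Rps4x in N40K mice with age turned to 0.0101 with the length trend removed. Of the other single-gene values, 2482 kept their call and 326 lost it without changing direction. The 2482 include fits that could not change the value. With the replicate block 12 members were called at 12 months, 2 at 3 months, 6 averaged, 72 with age in N40K mice and 41 in wild type, so no total changed by over 1.5 times, but the calls higher with age in wild type went to 5 (3 without the block) and that of Rpl3 at 3 months was lost (adjusted p = 0.0561). Of all genes the block gave 6.73% lower and 10.1% higher at 12 months, 2.76% and 6.63% at 3 months, and 8.73% and 14.8% averaged. With age it gave 36.3% lower and 14.9% higher in N40K mice, and 28.2% and 12% in wild type. The causes of these shifts were not tested, and 3 libraries a group limit the precision.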
